A study of Mus musculus with 36 samples.

Results

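Major urinary proteins (MUPs) are small lipocalins, barrel-shaped carriers that bind volatile pheromones. Mouse liver makes them, and they pass from the blood into the urine, where they release the scent slowly. Their genes form a cluster of similar tandem copies on mouse chromosome 4. Males make far more MUP than females, and the difference depends on testosterone and on the pulses of growth hormone secretion of male mice, which act on the liver through STAT5b.

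Here 6 protein-coding genes of the cluster are described: Mup3, Mup4, Mup5, Mup6, Mup20 and Mup21. Mup20 encodes darcin, the male pheromone that attracts females, and Mup4 and Mup5 are known from secretory and nasal tissue as well as from liver. They were chosen by name, with earlier results of these data known. A locus was taken from 5 kb before the start of each gene to 1 kb past its end, and the members' loci together held 535 of the 18887127 autosomal CpGs in the table. These were 49 CpGs at Mup3, 44 at Mup4, 26 at Mup5, 345 at Mup6, 31 at Mup20 and 69 at Mup21. The members were 6 of 21418 protein-coding autosomal genes, and 21223 loci were tested.

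The liver DNA of 24 mice, in 8 groups of 3, was studied by whole-genome bisulfite sequencing (WGBS), in which unmethylated cytosines are read as thymine. The inbred strains were C57BL/6N (B6) and C3H/HeN (C3). The F1 hybrids were B6C3F1, from a B6 dam and a C3 sire, and C3B6F1, from a C3 dam and a B6 sire. The groups were B6 sires, B6 dams, C3 sires, C3 dams, and the sons and daughters of each cross. By the paper, the animals came from 3 families of each cross, each with a sire, a dam, a son and a daughter. Parents were mated at 10 weeks of age, litters were weaned in week 16 and all animals were killed in week 20, so that dams, unlike their daughters, had been through pregnancy and nursing. The labels give no treatment and no altered gene for any group.

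Each animal had 19.4 to 32.8 reads per CpG, and 75 to 77.5% of its autosomal CpG reads were methylated. The promoters of 10 hepatocyte genes had a group median between 28.0 and 33.6%, and those of 7 leukocyte and Kupffer cell genes one between 83.2 and 87.0%. It was 67.1 to 70.2% for 4 endothelial genes and 31.5 to 40.8% for 3 stellate cell genes. Single genes departed from their lists, with group means of 53.7 to 59.8% at the hepatocyte gene Tat and 2.68 to 3.93% at the endothelial gene Kdr. A low promoter thus did not mark hepatocytes alone. Values are those of whole liver, so a change in the share of a cell type and a change of methylation within a cell type cannot be told apart.

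In the mm9 genome all members lay on chromosome 4. Mup4 (chr4:59969676-59973582, minus strand) and Mup6 (chr4:59977166-60020146, plus strand) lay at one end of the cluster. Their loci overlapped, so that some CpGs belonged to both. Mup5 (chr4:61492353-61496267), Mup20 (chr4:61711268-61715192), Mup3 (chr4:61744510-61748376) and Mup21 (chr4:61808966-61811897) were all on the minus strand at the other end. The annotated Mup6 gene was 43 kb long because of a distant first exon, while its shorter transcript (chr4:60016310-60020146) had the length of the other members.

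The copies were close in sequence. Between the start of a gene and 1 kb past its end, the aligned bases of Mup21 were 94% identical to Mup3, those of Mup4 87.4%, Mup6 87.3%, Mup20 86.8% and Mup5 86.2%. Of the 4867 bases of Mup3, 3359 were aligned to Mup21, against 4556 to 4694 to the other members, and bases left unaligned do not count in these shares. The fifth coding exon is shown for all members because it holds the Mup3 CpG with the largest difference between the sexes. The sequences are those of the mm9 reference on the strand of the gene, 5′ to 3′, and capitals mark CpG.

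Mup3 chr4:61745793-61745894: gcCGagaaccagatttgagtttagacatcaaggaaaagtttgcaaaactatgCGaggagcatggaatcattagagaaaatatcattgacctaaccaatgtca
Mup21 chr4:61809176-61809277: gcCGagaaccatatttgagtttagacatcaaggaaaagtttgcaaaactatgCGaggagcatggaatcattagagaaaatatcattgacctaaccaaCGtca
Mup20 chr4:61712516-61712617: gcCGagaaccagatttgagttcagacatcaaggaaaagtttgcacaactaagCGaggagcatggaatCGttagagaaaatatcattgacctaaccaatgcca
Mup5 chr4:61493586-61493687: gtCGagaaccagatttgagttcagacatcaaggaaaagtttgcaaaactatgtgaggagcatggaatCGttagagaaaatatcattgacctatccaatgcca
Mup4 chr4:59970928-59971029: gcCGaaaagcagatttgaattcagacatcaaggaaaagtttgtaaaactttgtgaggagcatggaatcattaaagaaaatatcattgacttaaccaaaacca
Mup6 chr4:60018794-60018895: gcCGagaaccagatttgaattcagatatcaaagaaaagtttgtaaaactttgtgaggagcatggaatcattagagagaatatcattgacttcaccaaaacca

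The CpG at the exon's start was shared by all 6 members. The second CpG of the Mup3 exon was shared with Mup21 and Mup20, and stood as a TG in Mup4, Mup5 and Mup6. Over these 102 bases Mup21 was 98.0% identical to Mup3, Mup20 95.1%, Mup5 94.1%, Mup4 88.2% and Mup6 87.3%.

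Since a read of one copy can be placed on another, each locus was described by how much of its sequence is its own. A stretch of 100 bases was called unique where, after bisulfite conversion, it occurs once in mm9. Of such stretches, 98.7% were unique at the Mup5 locus, 96.2% at Mup4, 85.4% at Mup21, 83.1% at Mup3, 72.1% at Mup6 and 51.7% at Mup20. At the other Mup genes of the cluster the share was 11.0 to 37.2%. A CpG was counted as lying in unique sequence where at least 90% of the stretches over it were unique. This held for 26 of 26 CpGs at Mup5, 36 of 44 at Mup4, 57 of 69 at Mup21, 32 of 49 at Mup3, 165 of 345 at Mup6 and 10 of 31 at Mup20. All 10 of the Mup20 CpGs lay upstream of the gene, and 0 of its 14 CpGs between start and end were in unique sequence.

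Read depth was compared between the strains before methylation, as reads per CpG of a locus divided by the animal's reads per CpG over all autosomes, so that 1 is the average. Mup5 was the member that stood apart. Its depth was 2.24, 2.25 and 2.07 in the B6 sires, 1.91, 2.10 and 2.17 in the B6 dams, 1.31, 1.13 and 1.17 in the C3 sires and 1.18, 1.16 and 1.28 in the C3 dams. It was 1.84, 1.76 and 1.56 in the B6C3F1 sons, 1.50, 1.70 and 1.48 in the B6C3F1 daughters, 1.76, 1.81 and 1.83 in the C3B6F1 sons and 1.79, 1.94 and 1.64 in the C3B6F1 daughters. Every B6 animal was above every F1 animal except for one B6 dam and one C3B6F1 daughter, and every F1 animal was above every C3 animal.

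Mup5 depth was 1.76-fold higher in B6 than in C3 parents (log2 difference 0.82 ± 0.053 (SE, limma), n = 6 and 6). It was the sole member called for depth between the strains, where 10.6% of all loci were called, at an adjusted p below 0.05 and a fold of at least 1.2. The other members lay between 0.883-fold at Mup20 (adjusted p = 0.065, limma) and 1.02-fold at Mup21. At Mup6, the ratio of B6 to C3 depth was 0.946 (adjusted p = 0.0091, limma), which is short of the fold required. Between sires and dams 0 members were called for depth, against 0.00471% of all loci. At Mup3 the ratio of male to female depth was 0.933 between sires and dams (unadjusted p = 0.081, limma) and 0.861 between sons and daughters (adjusted p = 0.34, limma, unadjusted p = 0.00075), and its part in the methylation values was not tested.

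**Figure D1:**
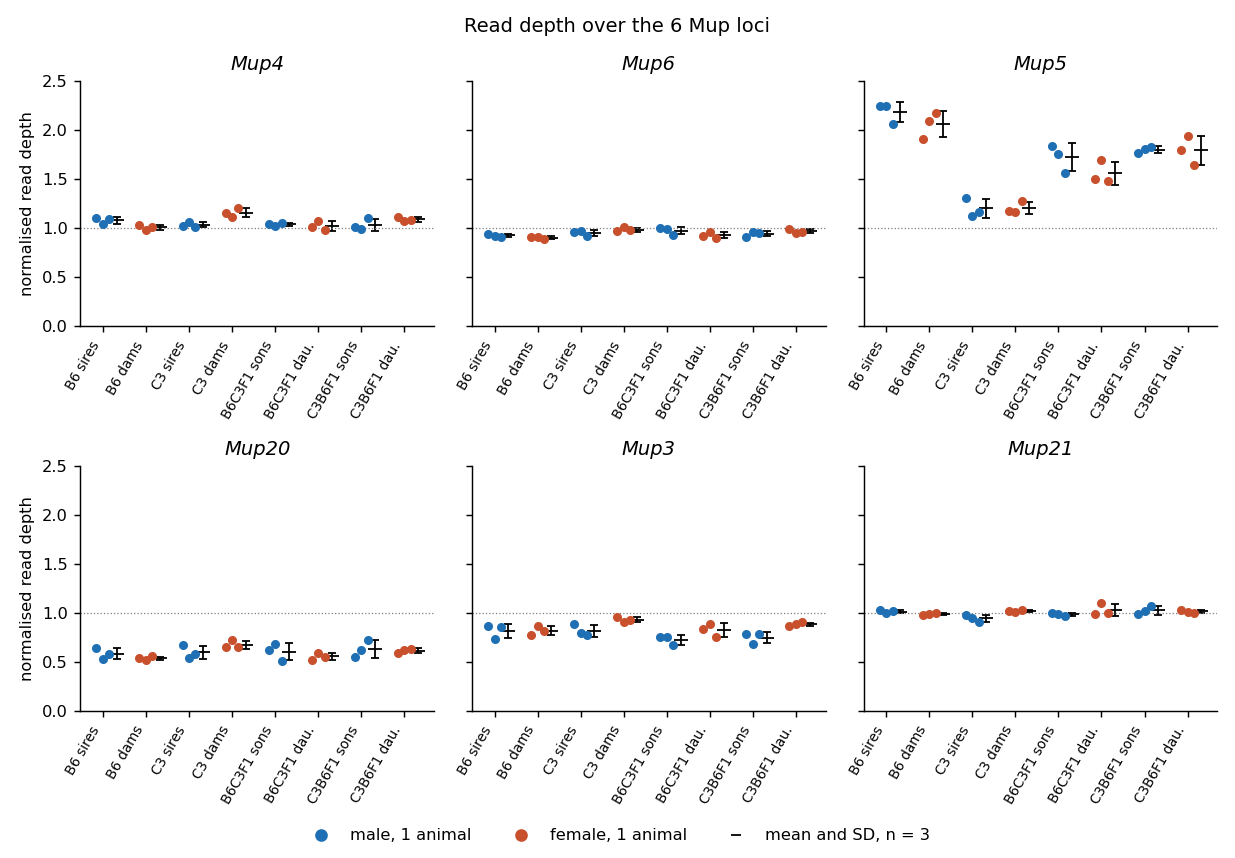
Read depth at the 6 Mup loci. Each point is 1 of 24 animals, and the x axis gives the 8 groups. The y axis is reads per CpG of the locus divided by the animal's reads per CpG over all autosomes. Dashes are group means and bars are SD (n = 3). At Mup5 the B6 animals sit between 1.91 and 2.25 and the C3 animals between 1.13 and 1.31, with the F1 animals between 1.48 and 1.94.

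Depth also differed between members. The 24 animals spanned 0.514 to 0.726 at Mup20 and 0.669 to 0.956 at Mup3, against 0.982 to 1.2 at Mup4, 0.888 to 1.01 at Mup6 and 0.907 to 1.10 at Mup21. At Mup20 a locus value thus rested on 389 to 644 reads per animal, against 745 to 1429 at Mup3. The table kept 56.5% of the mm9 CpGs of the Mup5 locus and 77.5% of those at Mup20, with a median of 98.7% over all loci. The authors kept a CpG where it held in mm9 and in the reads of both strains, and which of these steps removed CpGs at Mup20 was not tested. The list of single-nucleotide variants between the strains held 8.37 per kb at Mup5, above the 95th percentile of all loci at 4.82, and 0.10 to 0.78 per kb at the other members. How far the depth and variants of Mup5 affect its methylation values was not tested.

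Over whole loci, Mup3 and Mup20 were less methylated in males than in females, in parents and in offspring. Mup3, which in several strains is among the MUPs of adult liver, had the lowest methylation of the members. In the B6 sires 44.5, 38.3 and 44.6% of its reads were methylated, and in the B6 dams 52.4, 48.9 and 50.5%. The C3 sires had 29, 36.4 and 39.8%, and the C3 dams 50.2, 45.7 and 50.4%. All 6 sires were below all 6 dams.

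Among the offspring the order at Mup3 was the same. The B6C3F1 sons had 39.8, 43.6 and 37.6%, the B6C3F1 daughters 47.6, 47.4 and 45.6%. The C3B6F1 sons had 44.3, 39.7 and 43.5%, and the C3B6F1 daughters 53.2, 52.5 and 51.7%. All 6 sons were below all 6 daughters.

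Mup3 methylation differed by -10.9 percentage points between sires and dams, with a log2 ratio of methylated to unmethylated reads that fell by 0.65 ± 0.10 (SE, adjusted p = 0.00023, limma). Between sons and daughters it differed by -8.26 points (adjusted p = 0.023, limma). The exact two-sided permutation test gave p = 0.0022 for each, which is the smallest p that the 924 splits of 6 and 6 animals allow. Leaving out 1 animal at a time, the call between sires and dams held in 24 of 24 fits, and that between sons and daughters in 16 of 24, with differences of -9.07 to -7.56 points.

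At Mup20, which encodes darcin, the B6 sires had 60.2, 57.9 and 57.8% and the B6 dams 68.5, 70.5 and 74.4%. The C3 sires had 65.9, 68.2 and 68.6%, and the C3 dams 68.6, 75.2 and 73.0%. The B6C3F1 sons had 66.3, 65.5 and 63.2% and the daughters 75.2, 73.4 and 73.7%, and the C3B6F1 sons 66.5, 63.1 and 60.1% and the daughters 67.9, 69.1 and 70.3%. Males averaged lower than females in each strain and cross, with sires and dams overlapping through 1 C3 sire and 1 B6 dam, and sons and daughters not overlapping.

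Mup20 methylation differed by -8.59 points between sires and dams (log2 ratio fell by 0.56 ± 0.081 (SE), adjusted p = 0.00014, limma), and by -7.47 points between sons and daughters (adjusted p = 0.0022, limma). Of the members, 2 of 6 were thus called between sires and dams, where 0.565% of all loci were called, and 2 of 6 between sons and daughters, where 0.231% were. Over the CpGs in unique sequence alone, chosen as an alternative after seeing the data, Mup3 differed by -12.2 points between sires and dams (adjusted p = 2.1e-05, limma) and by -9.21 points between sons and daughters (adjusted p = 0.0022, limma). Over its 10 unique CpGs, all upstream of the gene, Mup20 differed by -3.01 points between sires and dams (adjusted p = 0.45, limma) and by -6.57 points between sons and daughters (adjusted p = 0.30, limma), so that neither call of Mup20 was made there. Over all 12 upstream CpGs, unique or not, it differed by -3.36 and -6.36 points. The unique set of Mup20 is thus 1 part of the locus set beside the whole, and the part of reads from other copies was not tested. Over CpGs with a normalised depth of 0.5 to 2 in both strains, Mup20 was still called between sires and dams (-7.21 points, adjusted p = 0.0022, limma) and was not called between sons and daughters (-5.72 points, adjusted p = 0.080, limma).

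Mup21, of the members the most identical to Mup3 over the bases that could be aligned, was more fully methylated, with 81.4 to 87.5% in the 24 animals. Its sires (81.4 to 84.6%) did not overlap its dams (85.4 to 87.5%), but the difference of -2.76 points (adjusted p = 0.00049, limma) was below the 5 points a call required. In sons it differed by -1.64 points from daughters (adjusted p = 0.18, limma). Mup4 lay between 79.7 and 85.1%, Mup5 between 80.5 and 87.0% and Mup6 between 82.8 and 85.4% in all animals, with differences between sires and dams of -0.20, -1.46 and 0.21 points that passed no test.

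**Figure D2:**
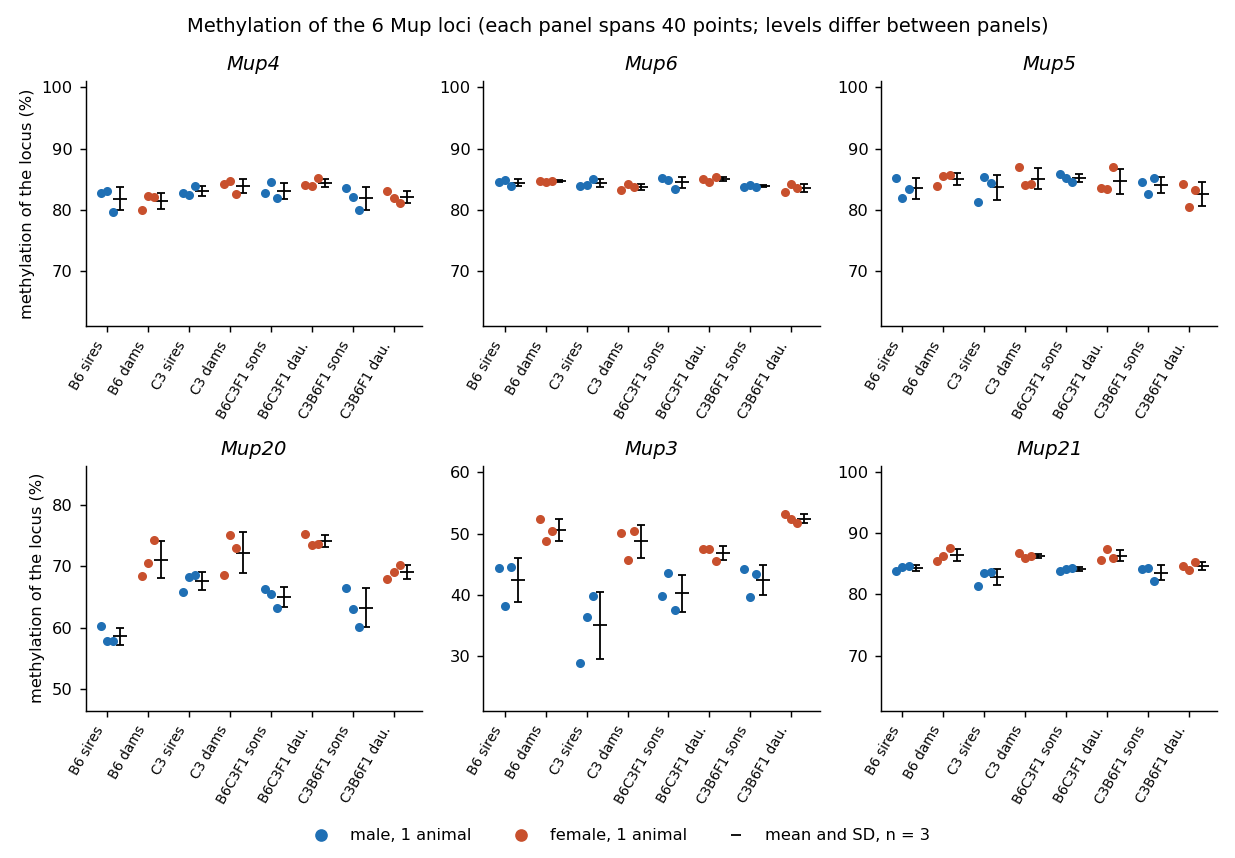
Methylation of the 6 Mup loci. Each point is 1 of 24 animals, the y axis is the percent of reads methylated over all CpGs of the locus, and the x axis gives the 8 groups. Dashes are group means and bars are SD (n = 3). Each panel spans 40 points, at levels that differ between panels. At Mup3 the 6 sires lie between 29 and 44.6% and the 6 dams between 45.7 and 52.4%, and at Mup20 the sires lie between 57.8 and 68.6% and the dams between 68.5 and 75.2%, while the other members stay above 79%.

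Within a strain or cross, with 3 animals against 3, Mup20 was called in B6 (-12.5 points, adjusted p = 0.0007) and in B6C3F1 (-9.12 points, adjusted p = 0.014), and Mup3 in B6 (-8.13 points, adjusted p = 0.047) and in C3 (-13.7 points, adjusted p = 0.0019), all by limma. Of all loci, 0.942% were called in the B6 strain and 1.03% in the C3 strain. In the hybrids the share was 0.165% for B6C3F1 and 0.123% for C3B6F1, in which 0 members were called. Mup3 differed by -6.54 points in B6C3F1 (adjusted p = 0.52, limma) and by -9.97 points in C3B6F1 (adjusted p = 0.17, limma), and Mup20 by -4.71 points in C3 (adjusted p = 0.10, limma) and by -5.83 points in C3B6F1 (adjusted p = 0.51, limma). The difference between the strains in the sex difference was tested itself and passed for 0 members, against 0.00942% of all loci. For Mup20 it was -7.76 points (adjusted p = 0.20, limma) and for Mup3 5.59 points (adjusted p = 0.31, limma). Likewise 0 members were called for a difference between generations in the sex difference (0.0377% of all loci called), between sires and sons (0%), between dams and daughters (0.0518%) or between the reciprocal crosses (0.00471%). By limma at an unadjusted p below 0.05 these counts were 0 of 6 members in the first 3. Between the crosses it was 5 of 6, with adjusted p values from 0.20 to 0.33 for single members. The share of all loci at that unadjusted p was not counted, so the 5 of 6 cannot be read as particular to the members. Mup4 and Mup6 also share CpGs. edgeR called 0 members in each of these comparisons. Between the crosses, B6C3F1 minus C3B6F1 was -3.90 points at Mup3, 3.38 points at Mup20 and 1.05 to 1.75 points at the other members.

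Between the strains, 1 of 6 members was called over the whole locus, against 3.75% of all loci. Mup20 differed by -5.03 points between B6 and C3 parents (adjusted p = 0.0062, limma), and the 2 strains overlapped, with an exact permutation p of 0.16. The permutation pooled sires and dams and took no account of sex. Among sires alone the strains did not overlap, and among dams they did. The strain call of Mup20 held in 16 of 24 fits that left out 1 animal. It was not made over CpGs with a normalised depth of 0.5 to 2 in both strains, where the difference was -3.59 points (adjusted p = 0.085, limma). Over the 10 unique CpGs, all upstream of the gene, the sign was reversed, with B6 at 3.79 points above C3 (adjusted p = 0.20, limma). Over all 12 upstream CpGs, unique or not, B6 was likewise 3.24 points above C3. Mup3 was 4.61 points higher in B6 (adjusted p = 0.041, limma), short of 5 points. The median difference between the strains over all loci was -0.964 points.

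The sex difference of Mup3 was called between its start and its end. Over the 17 CpGs of the gene, methylation was 40.8, 37.7 and 43.8% in the B6 sires and 55.3, 56.2 and 58.6% in the B6 dams. It was 35.2, 36.9 and 41.4% in the C3 sires and 65.0, 61.8 and 69.5% in the C3 dams. Sires averaged 39.3 ± 3.22% (SD, n = 6) and dams 61.1 ± 5.49% (SD, n = 6), and no sire reached the lowest dam.

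In the offspring, Mup3 gene methylation was 44.1, 43.5 and 40.1% in the B6C3F1 sons and 50.8, 54.6 and 51.8% in the B6C3F1 daughters. It was 51.1, 39.4 and 36.7% in the C3B6F1 sons and 60.4, 64.7 and 60.0% in the C3B6F1 daughters. One C3B6F1 son overlapped the lowest daughter. The difference was -21.7 points between sires and dams (adjusted p = 2.1e-06, limma, log2 ratio difference -1.28 ± 0.12 (SE)) and -14.6 points between sons and daughters (adjusted p = 0.00082, limma). Both calls held in 24 of 24 fits that left out 1 animal, and 16 of the 17 CpGs lay in unique sequence.

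Between start and end, 2 of 6 members were called between sires and dams, against 0.784% of all genes, and 1 of 6 between sons and daughters, against 0.265%. The second between sires and dams was Mup20, with 79.0, 75.8 and 71.8% in the B6 sires, 86.1, 88.8 and 84.7% in the B6 dams, 87.0, 81.1 and 89.4% in the C3 sires and 92.7, 94.8 and 95.2% in the C3 dams. Its difference was -9.67 points between sires and dams (adjusted p = 0.00059, limma) and -8.99 points between B6 and C3 (adjusted p = 0.00035, limma), where 4.65% of all genes were called and Mup20 was the one member. Over CpGs with a normalised depth of 0.5 to 2 in both strains the strain difference was -0.81 points (adjusted p = 0.85, limma) and was not called. Between sons and daughters it differed by -5.90 points (adjusted p = 0.11, limma). None of these CpGs was in unique sequence, and each value rested on 107 to 181 reads per animal.

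The promoters, from 1000 bases before to 500 bases after the start, differed in level between members far more than between sexes. The last 120 bases before the start are shown for 5 members so that their sequences stand beside their levels.

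Mup3 chr4:61748377-61748496: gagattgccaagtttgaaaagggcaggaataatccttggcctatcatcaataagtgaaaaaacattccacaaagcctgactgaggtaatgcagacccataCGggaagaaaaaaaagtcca
Mup21 chr4:61811898-61812017: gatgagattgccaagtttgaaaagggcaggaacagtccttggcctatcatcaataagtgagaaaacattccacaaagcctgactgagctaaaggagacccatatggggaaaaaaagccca
Mup4 chr4:59973583-59973702: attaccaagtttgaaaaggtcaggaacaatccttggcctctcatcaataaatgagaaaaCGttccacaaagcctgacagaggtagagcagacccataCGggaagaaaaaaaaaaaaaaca
Mup6, shorter transcript, chr4:60016190-60016309: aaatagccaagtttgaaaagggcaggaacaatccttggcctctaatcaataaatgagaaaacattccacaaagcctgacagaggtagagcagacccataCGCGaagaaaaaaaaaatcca
Mup20 chr4:61715193-61715312: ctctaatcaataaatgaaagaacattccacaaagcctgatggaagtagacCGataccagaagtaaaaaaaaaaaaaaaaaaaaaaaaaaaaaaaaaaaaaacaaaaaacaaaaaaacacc

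Promoter methylation was 11.7 to 33.8% at Mup3 and 15.9 to 32.5% at Mup20 over the 24 animals, and 53.7 to 72.5% at Mup21. It was 73.2 to 87.4% at Mup5 and 81 to 89.9% at Mup4, and 54.6 to 73.5% at the start of the Mup6 gene record. The promoters of Mup3 and Mup20 were thus the least methylated of the members in males and in females alike. Of the promoter CpGs, 1 of 6 at Mup20 and 9 of 9 at Mup3 lay in unique sequence. The part of reads from other copies in the Mup20 promoter values was not tested. Between sires and dams they differed by 0.26 points at Mup3 (adjusted p = 0.99, limma) and by -0.70 points at Mup20 (adjusted p = 0.98, limma), and 0 of 6 promoters were called, against 0.486% of all genes. The exact permutation test gave p = 0.92 and p = 0.81.

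The promoter of the shorter Mup6 transcript, read after seeing the data, was 50.2, 41.2 and 46.3% methylated in the B6 sires, 54.5, 56.8 and 54.5% in the B6 dams, 44.7, 38.7 and 49.2% in the C3 sires and 45.5, 55.3 and 50.8% in the C3 dams. It was 39.9, 41.5 and 41.0% in the B6C3F1 sons, 51.4, 52.6 and 49.5% in the daughters, 42.7, 46.2 and 45.4% in the C3B6F1 sons and 52.8, 53.7 and 58.5% in the daughters. Sons did not overlap daughters, with a difference of -10.3 points (adjusted p = 0.017, limma), and 0.218% of all promoters were called between sons and daughters. Sires differed from dams by -7.81 points (adjusted p = 0.097, limma). At the start of the longer gene record the promoter was not called between the sexes.

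Between the strains 2 of 6 promoters were called, against 6.73% of all promoters. At Mup21 the B6 sires had 71.7, 61.3 and 67.1% and the B6 dams 66.2, 66.3 and 66.5%, the C3 sires 53.7, 59.6 and 57.5% and the C3 dams 64.8, 55.3 and 62.1%. B6 was higher by 7.70 points (adjusted p = 0.039, limma, exact permutation p = 0.0065). For the Mup6 gene record the difference between B6 and C3 was -7.12 points (adjusted p = 0.036, limma), while the shorter transcript's promoter was 3.21 points higher in B6 (adjusted p = 0.38, limma). These calls held in 15 and 16 of 24 fits that left out 1 animal, and with CpGs of a normalised depth of 0.5 to 2 that of Mup21 was lost (7.70 points, adjusted p = 0.054, limma).

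The 5 kb before Mup3 differed between the strains. They were 48.6, 39.9 and 47% methylated in the B6 sires and 51.9, 46.0 and 46.0% in the B6 dams, and 25.3, 36.9 and 39.3% in the C3 sires and 38.7, 35.3 and 35.8% in the C3 dams. No C3 parent reached the lowest B6 parent. The difference was 11.4 points (adjusted p = 0.00064, limma, exact permutation p = 0.0022), and Mup3 was the one member called, against 9.38% of all upstream regions. It held in 24 of 24 fits that left out 1 animal. Over the 15 unique CpGs of these 31 it was 9.19 points (adjusted p = 0.00096, limma).

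**Figure D3:**
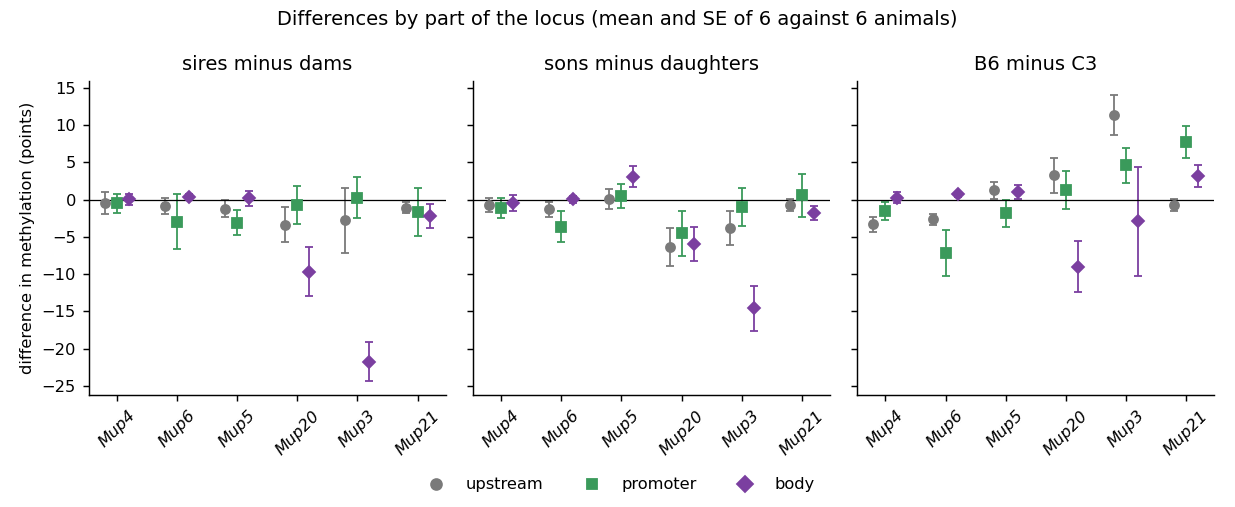
Differences in methylation by part of the 6 Mup loci. The y axis is the mean difference in percentage points between 6 and 6 animals, the bars are standard errors, and the groups on the x axis are the upstream, promoter and gene parts of each member for sires minus dams, sons minus daughters and B6 minus C3. Mup3 falls by 21.7 points between start and end in sires, with a promoter difference of 0.26 points, and its upstream part is 11.4 points higher in B6.

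Smaller windows showed where in the loci the differences lay. Of 77 windows of 500 bases tested at the members, with at least 3 CpGs and 30 reads in every animal, 1 was called between sires and dams at an adjusted p below 0.05 and at least 20 points, against 0.11% of the 2580465 windows tested. It was at Mup3 (chr4:61745501-61746000), with 5 CpGs, 2 of them in the fifth coding exon. The difference was -24.4 points between sires and dams and -13.8 points between sons and daughters (adjusted p = 0.0054, limma). Between B6 and C3 parents it was -3.43 points (adjusted p = 0.37, limma). Between sons and daughters, where 0.0571% of windows were called, and between strains, where 0.436% were, 0 member windows were called. Windows with an adjusted p below 0.05 numbered 2 and 3, and the shares of all windows at that threshold alone were not counted.

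By the rule for naming windows, the largest differences between sires and dams elsewhere were -3.32 points at Mup4 (adjusted p = 0.68), -3.32 points at Mup5 (adjusted p = 0.62), -7.73 points at Mup6 (adjusted p = 0.32), -1.10 points at Mup20 (adjusted p = 0.68) and -8.03 points at Mup21 (adjusted p = 0.033), by limma. The Mup6 window, at the start of the shorter transcript, differed by -14.4 points between sons and daughters (adjusted p = 0.039, limma). The largest between the strains was 17.3 points higher in B6 at Mup3 (chr4:61751001-61751500, adjusted p = 0.0008, limma), and those at the other members lay between -8.08 points, in a window that Mup4 and Mup6 share (adjusted p = 0.11, limma), and -0.85 points at Mup20 (adjusted p = 0.86, limma). Of Mup20, 1 window of 500 bases met the minimum of CpGs and reads.

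Windows of 1000 bases, added after seeing the data, gave 68 tested windows. Between sires and dams 4 were called, against 0.0651% of 1964408 windows. They were 2 at Mup3 and 2 at Mup20. Between the strains, a Mup5 window of 3 CpGs in unique sequence (chr4:61491001-61492000) was not called. Its B6 parents had 45.6 to 56.7% and its C3 parents 62.7 to 79.1%, without overlap. Its normalised depth was 1.44 to 2.34 in B6 and 1.04 to 1.44 in C3 parents, and the part of depth in these values was not tested.

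The Mup3 window over the fifth coding exon and the sixth intron (chr4:61745001-61746000, 7 CpGs) was 55.9, 45.8 and 59.4% methylated in the B6 sires and 77.4, 86.4 and 82.6% in the B6 dams. It was 55.6, 59.2 and 63.0% in the C3 sires and 86.9, 86.0 and 87.2% in the C3 dams. The B6C3F1 sons had 62.8, 63.4 and 54.2% and the daughters 72.1, 81.3 and 76.8%, and the C3B6F1 sons 66.5, 56.9 and 56.0% and the daughters 73.6, 83.3 and 80.3%. All 12 males were below all 12 females. The difference was -27.9 points between sires and dams (log2 ratio difference -2.05 ± 0.18 (SE), adjusted p = 8.1e-08, limma) and -17.9 points between sons and daughters (adjusted p = 0.00049, limma), under the 20 points required. It was called in B6 (-28.4 points) and in C3 (-27.4 points), each with 3 member windows called against 0.0598% and 0.0985% of all windows, and 99.5% of its stretches of 100 bases were unique.

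Toward the start of Mup3, the window of 5 CpGs at chr4:61747001-61748000 was 28.7, 31.2 and 28.2% methylated in the B6 sires and 48.1, 31.9 and 42.2% in the B6 dams. It was 16.5, 12.3 and 17.1% in the C3 sires and 48.6, 50.4 and 64.6% in the C3 dams. Sires did not overlap dams. The difference was -25.3 points (adjusted p = 5.1e-05, limma), and -16.7 points between sons and daughters (adjusted p = 0.016, limma). The C3 difference of -39.2 points was called (adjusted p = 2.3e-05, limma) and the B6 difference of -11.4 points was not (adjusted p = 0.51, limma). The difference between the strains in the sex difference was 27.9 points, with an adjusted p of 0.63 by limma.

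At Mup20 the called windows lay over and past the gene's end. In the window at chr4:61710001-61711000, with 4 CpGs of which 1 lies more than 1 kb past the end, the B6 sires had 39.7, 35.9 and 41.9% and the B6 dams 91.5, 86.4 and 92.6%. The C3 sires had 83.3, 85.7 and 79.3% and the C3 dams 93.2, 92.1 and 90.7%. The B6C3F1 sons had 54.7, 75 and 67.9% and the daughters 89.7, 84.6 and 91.3%, and the C3B6F1 sons 76.9, 68.8 and 53.2% and the daughters 94.1, 93.4 and 88.9%. B6 sires stood far below all other animals, and sons of both crosses lay between the B6 and the C3 sires.

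This Mup20 window differed by -30.1 points between sires and dams (adjusted p = 4.8e-07), by -24.3 points between sons and daughters (adjusted p = 8.3e-06) and by -22.7 points between B6 and C3 (adjusted p = 7.1e-05), all by limma, and it was the one member window called in the last 2 comparisons. The background was 0.0341% of windows between sons and daughters and 0.345% between the strains. The sex difference was -51.0 points in B6 and -9.23 points in C3, and the difference between them of -41.8 points had an adjusted p of 0.30. Of its stretches of 100 bases 2.5% were unique. The neighbouring window (chr4:61711001-61712000, 18.1% unique) differed by -24.6 points between sires and dams (adjusted p = 1.2e-05, limma), and its normalised depth was 0.39 in B6 and 0.74 in C3 parents. The part of reads from other copies in the Mup20 values was not tested.

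A stretch of this region past the end of Mup20 is printed around a CpG whose level differed by strain and sex. It was 31.0% methylated in B6 sires and 82.1% in C3 sires, 67.3% in B6C3F1 sons and 70.3% in C3B6F1 sons, and 91.2 ± 5.34% (SD, n = 12) in females. Its normalised depth was 0.75 in B6 and 1.47 in C3 parents, and 75.8% of the stretches over it were unique.

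Mup20 chr4:61710901-61711020: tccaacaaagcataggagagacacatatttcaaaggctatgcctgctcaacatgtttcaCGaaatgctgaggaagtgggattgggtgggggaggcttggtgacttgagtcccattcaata

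**Figure D4:**
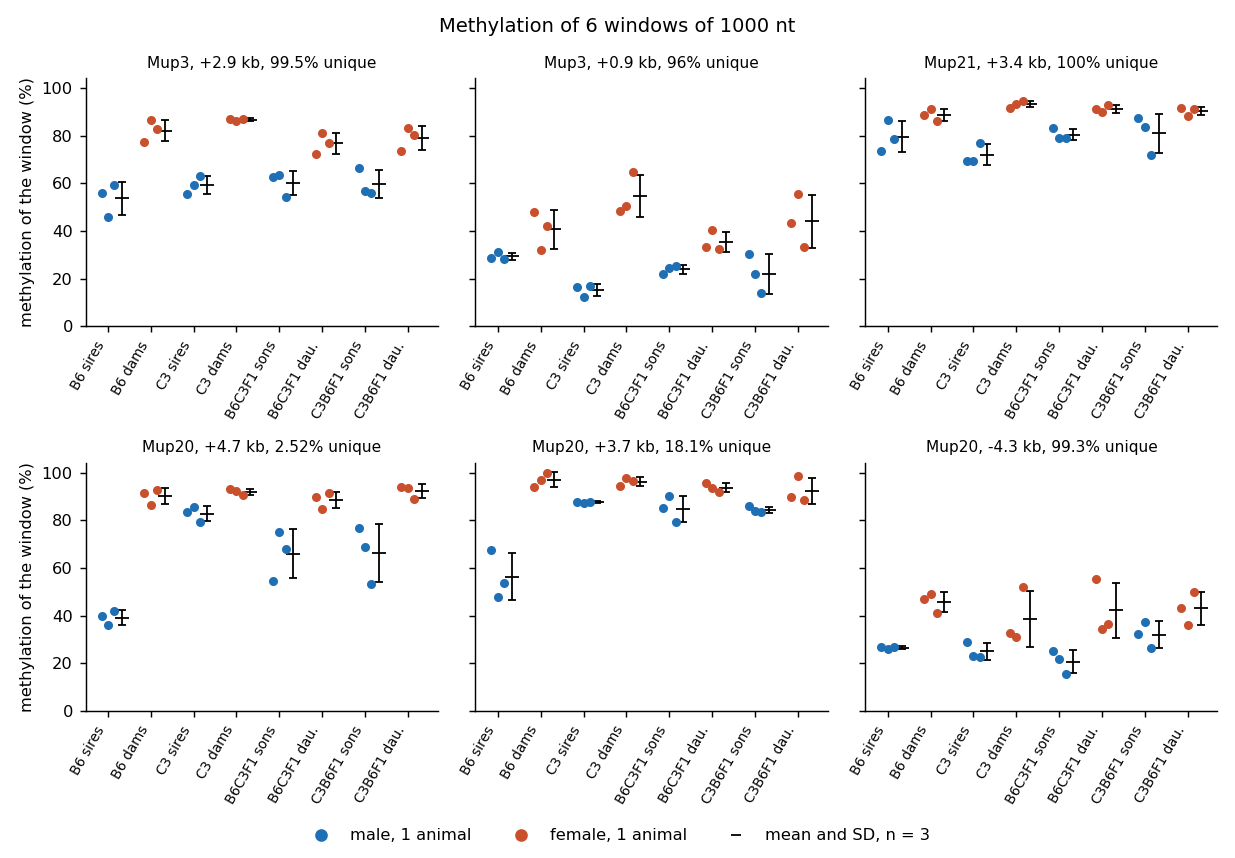
Methylation of 6 windows of 1000 bases at Mup3, Mup20 and Mup21. Each point is 1 of 24 animals, the y axis is percent of reads methylated, and the x axis gives the 8 groups. Dashes are group means and bars are SD (n = 3). In the Mup3 window over the fifth coding exon the males lie between 45.8 and 66.5% and the females between 72.1 and 87.2%, while in the window past the end of Mup20 the B6 sires lie between 35.9 and 41.9% and the C3 sires between 79.3 and 85.7%.

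Between all sires and dams 7 windows of 1000 bases had an adjusted p below 0.05 by limma, the 4 called ones among them. The share of all windows at that threshold alone was not counted, so the 7 cannot be read as particular to the members. Of the windows not called, the 2 with the largest differences are described here. They lay at the end of Mup21 and far upstream of Mup20, both in unique sequence. At Mup21 (chr4:61808001-61809000, 6 CpGs, 100% unique) the B6 sires had 73.5, 86.4 and 78.5%, the B6 dams 88.5, 91.2 and 86.3%, the C3 sires 69.6, 69.2 and 77.0% and the C3 dams 91.8, 93.3 and 94.6%. The difference was -15.3 points between sires and dams (adjusted p = 4.5e-05, limma) and -10.1 points between sons and daughters (adjusted p = 0.0073, limma). In C3 it was -21.3 points and called, and without C3 sire 2 it was -19.97 points, just short of a call. In B6 it was -9.21 points (adjusted p = 0.28, limma).

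The upstream Mup20 window, with its midpoint at -4308 bases from the start (chr4:61719001-61720000, 3 CpGs, 99.3% unique), had 27.0, 25.8 and 26.8% in the B6 sires and 46.8, 49 and 40.9% in the B6 dams, and 29.1, 23.3 and 22.6% in the C3 sires and 32.8, 31.0 and 52.0% in the C3 dams. The B6C3F1 sons had 25.0, 21.7 and 15.6% and the daughters 55.6, 34.6 and 36.7%, and the C3B6F1 sons 32.2, 37.5 and 26.3% and the daughters 43.3, 36.1 and 50.0%. Sires did not overlap dams, and sons overlapped daughters. The difference was -16.3 points in parents (adjusted p = 0.016, limma) and -16.3 points in offspring (adjusted p = 0.025, limma), short of 20 points. Its CpGs are marked in the sequence.

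Mup20 chr4:61719421-61719580: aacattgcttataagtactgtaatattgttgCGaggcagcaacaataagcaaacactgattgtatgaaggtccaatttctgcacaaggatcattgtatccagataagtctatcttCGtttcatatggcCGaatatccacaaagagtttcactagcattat

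Single CpGs were read as a description, over the 12 males and 12 females and with at least 5 reads in every animal. At Mup3, 7 of 40 such CpGs were at least 20 points lower in males, 6 of them in unique sequence, and 0 were as much higher. At Mup20 it was 2 of 20 and at Mup21 2 of 69, against 0 of 43 at Mup4, 0 of 23 at Mup5 and 0 of 325 at Mup6. The lowest value at Mup6 was -19.6 points, just short of this cut. The share of all autosomal CpGs at this cut was not counted, so these counts compare the members only. The median over the CpGs was -7.0 points at Mup3, -4.88 at Mup20 and -0.47 at Mup21.

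In Mup3 these CpGs ran from the second intron to the last exon. The CpG 2535 bases after the start, the second of the fifth coding exon shown above, was 37.3 ± 10.9% (SD) methylated in males and 75.5 ± 9.13% (SD) in females, without overlap. The other CpG of that exon, 2485 bases after the start, was 55.1 ± 11.3% (SD) in males and 88.4 ± 6.35% (SD) in females. In the sixth intron, the CpG 3183 bases after the start was 9.88 ± 5.67% (SD) in males and 43.6 ± 12.5% (SD) in females, and the one 3093 bases after the start 50.0 ± 14.5% (SD) and 82.2 ± 10.8% (SD). Both are marked in the following stretch.

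Mup3 chr4:61745173-61745312: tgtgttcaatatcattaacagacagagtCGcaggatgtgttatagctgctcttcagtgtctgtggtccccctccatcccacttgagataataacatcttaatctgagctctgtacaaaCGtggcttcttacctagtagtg

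In the exon that holds the 3′ end of the message, the CpG 3730 bases after the start was 23.2 ± 9.93% (SD) in males and 58.7 ± 16.2% (SD) in females. Near the start the differences were smaller, with 19.4% in males and 17.7% in females at the CpG 73 bases after it, 26.8 and 34.6% at 128 bases and 30.5 and 41.9% at 336 bases. Not all CpGs further inside differed as much, with 94.5 and 95.4% at 2752 bases and 86.3 and 93.7% at 2767 bases. The CpG 781 bases after the start had 23.6 ± 9.61% (SD) in males and 51.9 ± 15.6% (SD) in females.

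**Figure D5:**
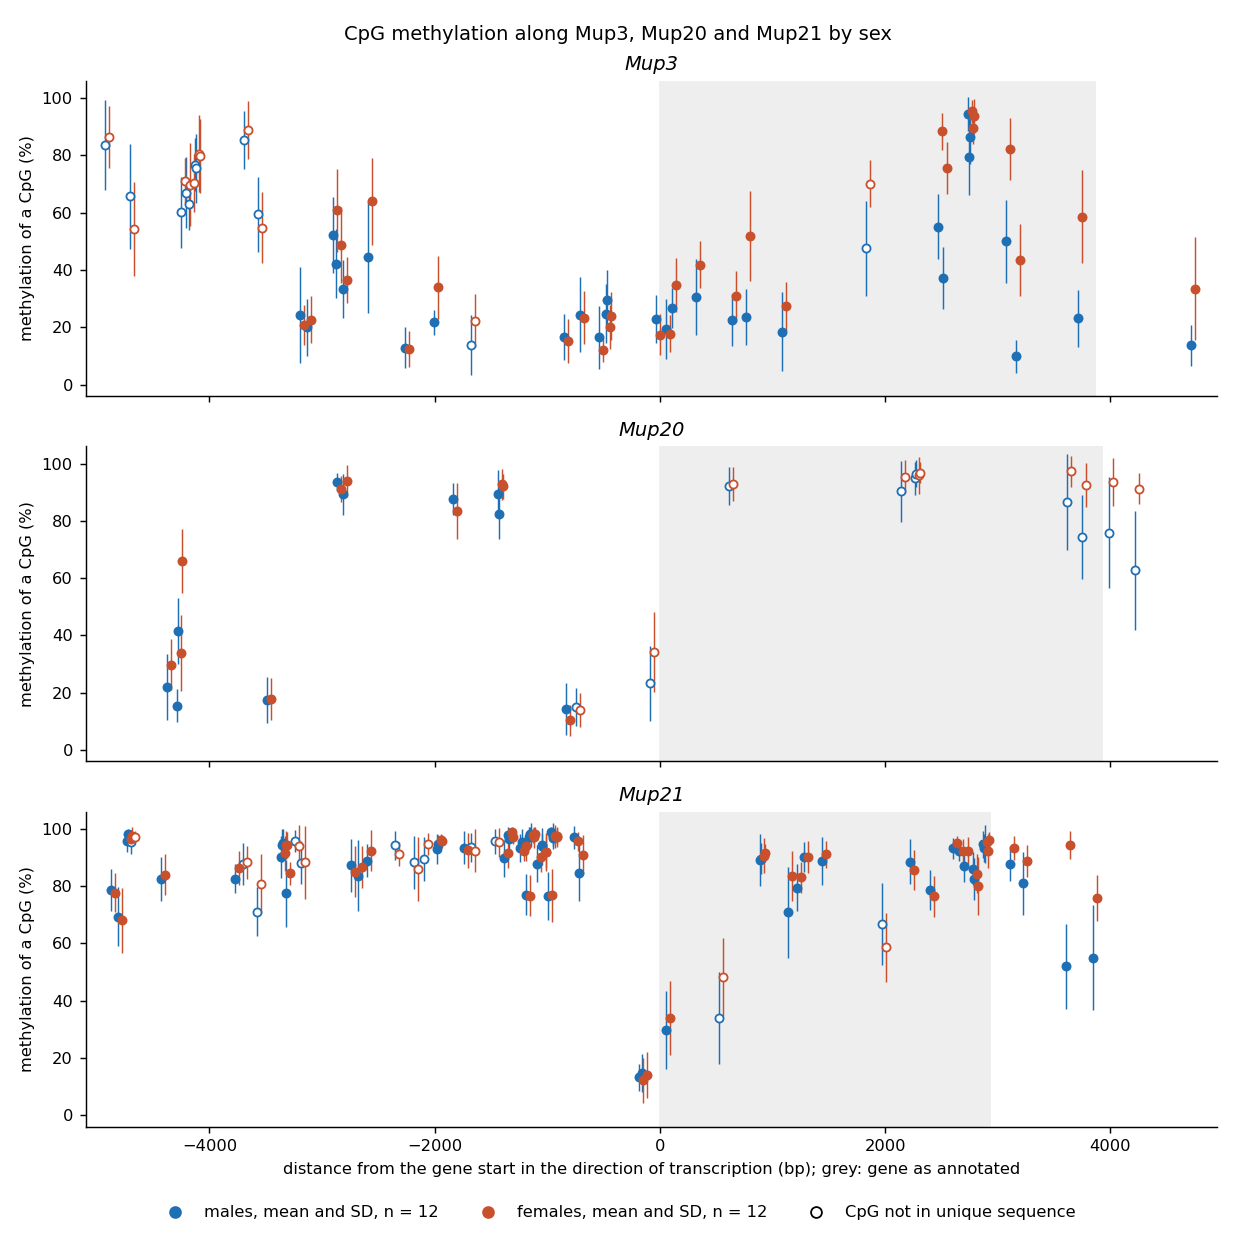
Methylation of single CpGs along Mup3, Mup20 and Mup21. The x axis is the distance from the start of the gene in bases, the y axis percent methylated, and points are means of 12 males and 12 females with SD; open symbols lie in sequence that is not unique. In Mup3 the sexes differ little at 73 bases, with 19.4 and 17.7%, and most at 2535 bases, with 37.3% in males and 75.5% in females.

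The same positions were looked up in the other copies. Of the 7 Mup3 CpGs lower by at least 20 points in males, 4 were also a CpG in Mup21, 2 in Mup20 and 1 each in Mup4, Mup5 and Mup6. The Mup3 CpGs at 3183 and 3730 bases stood opposite a gap of the alignment in Mup21, and the one at 3093 bases in Mup5. Opposite the Mup3 CpG at 2535 bases, the one of Mup21 was 92.1% methylated in males and 92.2% in females. Opposite the CpG at 2485 bases, methylation was 93.2% in males and 94.9% in females at Mup21, 89.9 and 91.6% at Mup4, 83.2 and 80.2% at Mup5 and 95.5 and 94.1% at Mup6. Opposite the one at 781 bases it was 89.2 and 90.7% at Mup21, and opposite the one at 1847 bases 66.7 and 58.6%. At this last pair, 6.06% of the stretches over the CpG were unique in either copy, so that reads of Mup3 and Mup21 may not be told apart there. None of these copies was lower in males by as much as 5 points at these CpGs, and the 2 CpGs of Mup20 had no value.

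Mup21 had its own pair past the annotated end. The CpG 3626 bases after its start was 52.0 ± 14.8% (SD) methylated in males and 94.4 ± 4.78% (SD) in females, without overlap, and the one 3864 bases after it 55.0 ± 18.4% (SD) and 76.0 ± 8.03% (SD). The Mup21 gene record is 2.93 kb long, against 3.87 kb at Mup3, so these positions fall past its end.

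The 1000 bases before each start were searched on both strands for the core of the STAT5 site, TTCNNNGAA, and for TGTTTAC, a core of forkhead sites. TTCNNNGAA reads the same on both strands, and no hit of one motif overlapped a hit of the other. The STAT5 core was found in 5 of 6 members, at -459 from the start in Mup21 and in the shorter Mup6 transcript, at -460 in Mup3, at -496 in Mup5 and at -660 in Mup4, and was not in this window of Mup20. Of all promoters of this length 27.6% held it. TGTTTAC was found in 4 members, at -771 in the shorter Mup6 transcript, -773 in Mup4, -782 in Mup3 and -810 in Mup20, and in 12.4% of all promoters. The members are similar tandem copies, so their hits are not independent, and neither count can be weighed against these shares. In the 6 windows of 1000 bases described above at Mup3, Mup20 and Mup21, the STAT5 core was found in 1, at Mup21, and TGTTTAC in 0. The shares of all windows of this length were 31.5% and 14.1%.

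Around the members, counts were taken over lists given by name, which were also drawn up with earlier results of these data known. Of 15 other Mup genes 10 could be tested, all of them with 37.2% or less of their sequence unique. Between sires and dams, where 0.565% of all loci were called, Mup1 (-17.8 points) and Mup7 (-15.3 points) were called lower and Mup19 (9.26 points) higher, with a list median of -0.35 points against 0.509 over all loci. Between sons and daughters, where 0.231% of all loci were called, the same 3 genes were called, at -14.5, -12.7 and 7.34 points. Of 20 flanking genes that are not Mup genes, within 500 kb of the cluster, 0 were called between the sexes in either generation.

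Of genes known to be higher in male liver, 6 of 11 tested were called lower in sires than in dams, against 0.565% of all loci called in either direction, among them Cyp2d9 (-27.3 points), a steroid hydroxylase, and Elovl3 (-10.3 points), a fatty acid elongase, with a list median of -5.10 points. In sons 4 were called lower than in daughters, against 0.231% of all loci. Of 13 known to be higher in female liver, 7 were called higher in sires, among them Cyp2a4 (20.7 points) and Cyp2b9 (17.8 points), both cytochrome P450 enzymes, with a median of 5.08 points, and 5 were called higher in sons. Of 14 genes of growth hormone signalling, such as the receptor Ghr and its factor Stat5b, 0 were called between sires and dams, with a median of 0.13 points. Mup3 and Mup20, the members called, were lower in males, as were Mup1 and Mup7, while Mup19 was higher. The genes called on the male-biased list were lower in males too. That list was drawn up with earlier results known, and a shared cause was not tested.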

How the data were processed

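The authors deposited 2 counts per CpG in every animal, of reads that were methylated and of those that were not, with both strands combined. Per the submitters' processing notes, tools included Bismark 0.7.8, Bowtie 0.12.8, Picard 1.110 and CASAVA 1.8.2, with genome build mm9. The authors removed duplicate reads and kept CpGs present in mm9 and in both strains, and they deposited a list of strain variants, which was used to count variants per kb. Bismark by design drops a read without a single best alignment, so copies that are alike lose depth, and a read of a copy absent from mm9 can be placed on another. FOXA1 ChIP libraries of the series were left out, and 0 columns of other samples were present.

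Counts were summed over loci, parts of loci (5 kb upstream, promoter, start to end) and windows with GENCODE gene records of mm9, keeping features with at least 3 CpGs and 30 reads in every animal. limma 3.58.1 in R 4.3.3 (trended, robust) was fitted to the log2 ratio of both counts, each raised by a pseudocount of 1, on 8 group means over 24 animals, and p-values were adjusted by Benjamini-Hochberg over all features of a kind. Loci and parts were called at an adjusted p below 0.05 and 5 points, windows at 20 points, and depth at a fold of 1.2. Points are differences of group means of the percent of reads methylated, and each strain or sex is the mean of its 2 group means. edgeR 4.0.16 and the exact permutation test were alternatives. The study's own tools, DSS and Metilene, were not run. The script was tested on simulated data.

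Animals of a group were separate mice. Total counts per animal were 365740739 to 619888157, and read numbers set a precision that covers counting error only. All 6 members were named. Of each, the windows of 500 bases with the largest difference between sires and dams and between strains were named. The members and lists were chosen with earlier results of these data known. Windows of 1000 bases, the shorter Mup6 transcript and the restriction to unique sequence were chosen after seeing the data. The sequence of 1 promoter is not reported here.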

Additional observations from a re-analysis of the deposited data

Results flagged for a closer look

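One value stood apart from the rest of its group. The normalised read depth of the Mup21 locus was 1.10 in a B6C3F1 daughter, the highest of the 6 B6C3F1 animals, with the next at 0.998, and this gap was 0.755 of the range of the 6 values, above the limit of 0.625 for 6 samples. Chance alone marks about 1 in 20 such groups. In each group the lowest and the highest value were looked at, 112 values in all, with Mup6 entered as its gene record and as its shorter transcript. The methylation of the Mup21 locus in this animal did not stand apart in the same way.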

How the results depend on the processing

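At loci, asking for 10 points left 0 members called between strains, 1 between sires and dams and 0 between sons and daughters. Only CpGs in unique sequence left 0, 1 and 1, with Mup20, there read upstream of the gene only, at 3.79 points between strains. The exact permutation test left 0 between strains. CpGs with a normalised depth of 0.5 to 2 in both strains left 1 between sons and daughters. From start to end, unique CpGs left 0 between strains and 1 between sires and dams, and the depth limit left 0 between strains. With Mup6 as its shorter transcript, 1 promoter was called between strains, with Mup6 at 3.21 points, and 1 between sons and daughters, and the depth limit left 1 between strains. For windows, 10 points gave 2 between strains and 2 between sons and daughters, 100 reads gave 0 between sires and dams, and 1000 bases gave 1 between strains, 4 between sires and dams and 1 between sons and daughters. A pseudocount of 5 gave 2 windows of 1000 bases in C3B6F1. Apart from what an alternative removes by construction (CpGs, windows or a size of difference), the cause of these shifts was not tested.

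Leaving out 1 animal gave 0 to 1 called loci between strains and 1 to 2 between sons and daughters, 1 to 2 genes from start to end between sons and daughters, 0 to 3 promoters between strains, and, for windows of 1000 bases, 1 to 2 between strains, 0 to 2 in B6C3F1 and 0 to 3 in C3B6F1. Mup20 fell under 5 points between strains (-4.88 to -4.30) without B6 sire 2 or 3, B6 dam 1 or 2, C3 sire 2 or 3, or C3 dam 2 or 3. Mup3 lost its call between sons and daughters (-8.44 to -7.56 points, adjusted p up to 0.081, limma) without B6C3F1 son 1 or 3, B6C3F1 daughter 1 or 2, C3B6F1 son 2, or C3B6F1 daughter 1, 2 or 3. The promoter call of Mup21 between strains was lost (6.34 to 8.05 points, adjusted p up to 0.13, limma) without B6 sire 1 or 3, any 1 of the B6 dams, C3 sire 1 or 3, or C3 dam 2 or 3, and that of the Mup6 gene record (-7.42 to -5.61 points, adjusted p up to 0.13, limma) without sire 1 or 3 of either strain, B6 dam 1 or 3, or C3 dam 1 or 2. A sign change of a difference that passed no threshold was not counted as a reversal.

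Replicate numbers were not shown to pair animals. The pairs below were pooled over all groups, most of them not of one family, so they cannot show whether animals pair by family. Same-numbered animals of different groups had correlations of their deviations between -0.339 and 0.497 (84 pairs, median 0.052), against -0.459 to 0.322 for other numbers (168 pairs, median -0.022). The fit with the replicate number as a block changed 0 of the calls and counts compared, with Mup3 and Mup20 between sires and dams at adjusted p = 0.00044 and 0.00032 (limma). Depth limits a Mup20 value to 389 to 644 reads per animal over the locus and to 107 to 181 from start to end.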
